A study of Mus musculus with 18 samples.

Results

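The wild-type 2-cell embryo was described here from 9 individual embryos, which were all the embryos labelled genotype Wild-type among the 18 embryos profiled. The 9 embryos were conceived naturally by wild-type females and fathered by 3 wild-type males, with 3 embryos from each, all of strain 129SVE (129S6/SvEvTac). An embryo is written as in the labels, with its father's number and then its own, so WT_2-3 is the embryo numbered 3 of father 2. The 9 remaining embryos had Parg(110)-/- fathers and carried 1 allele lacking exons 2 and 3 of Parg. They were used only to see whether the same genes were steady or variable in embryos that had no part in choosing them, and genotypes were not compared. The RNA was amplified separately from every embryo, and its cDNA was hybridised to 1 Affymetrix Mouse Gene 1.0 ST array. With 1 array per embryo, differences between embryos and differences between amplifications cannot be told apart. Nor can fewer transcripts per cell be told apart from a changed share of all transcripts, because the arrays were scaled to each other.

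At the 2-cell stage the mouse embryo lives partly on messenger RNA that the oocyte stored before fertilisation, and much of this maternal store is being degraded. At the same stage the embryo's own genome begins to be transcribed in earnest, with a short burst of genes and repeats that are hardly used at any other time. Single embryos, each the product of 1 oocyte and 1 sperm, therefore show a mixture of inherited and newly made transcripts.

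Levels are given as log2 array signal, so 1 unit is a doubling of signal. Signal also depends on how well the probes of a probe set bind, so the order of genes by signal is not an order by number of transcripts. Each gene was represented by the probe set with the highest mean over the 9 embryos among those that name that gene alone, which gave 19935 genes. The background of each embryo was read from 1228 olfactory, vomeronasal and taste receptor genes, families that work in sensory cells. The 95th percentile of these genes is called the ceiling, and it lay between 6.27 (WT_2-1) and 6.52 (WT_1-3). A gene was called on in an embryo at 1 log2 unit or more above its ceiling, and at background at or below it.

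By these definitions 4155 genes were on in all 9 embryos (20.8% of genes) and 7533 were at background in all 9 (37.8%). Steady genes, which were on in all 9 embryos with an SD of at most 0.15 over them, numbered 487 (2.44%). Another 387 genes (1.94%) were on in at least 2 embryos and at background in at least 2. The remaining 7860 genes fell between these classes, and 7855 genes were on in at least 1 embryo. Every pair of arrays was alike over all probe sets, with a Pearson r between 0.940 and 0.957 in the 36 pairs, a description in which the points share probe affinities.

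The upstream sequence of 4 genes is printed to show the range that the classes cover. Usp7 was the steadiest gene, Omt2b a steady maternal oocyte gene, Bex1 the gene with the largest SD, and Olfr314 a receptor gene that nevertheless stood above the ceiling. Each line gives the 250 bases before the annotated start, from RefSeq on build GRCm38.p6, read along the gene's strand with every CG dinucleotide in capitals.
Usp7, chr16:8738343-8738592, minus strand: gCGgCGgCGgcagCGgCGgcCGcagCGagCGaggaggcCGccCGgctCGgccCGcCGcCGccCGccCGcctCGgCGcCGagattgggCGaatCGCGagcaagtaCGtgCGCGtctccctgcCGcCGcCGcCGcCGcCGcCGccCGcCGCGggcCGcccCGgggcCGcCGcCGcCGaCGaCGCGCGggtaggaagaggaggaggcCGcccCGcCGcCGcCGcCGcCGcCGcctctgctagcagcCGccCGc
Omt2b, chr9:78327780-78328029, plus strand: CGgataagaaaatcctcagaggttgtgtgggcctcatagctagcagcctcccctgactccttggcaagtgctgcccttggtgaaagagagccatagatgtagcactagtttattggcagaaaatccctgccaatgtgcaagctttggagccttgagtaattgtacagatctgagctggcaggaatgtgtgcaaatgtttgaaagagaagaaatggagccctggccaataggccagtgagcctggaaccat
Bex1, chrX:136215514-136215763, minus strand: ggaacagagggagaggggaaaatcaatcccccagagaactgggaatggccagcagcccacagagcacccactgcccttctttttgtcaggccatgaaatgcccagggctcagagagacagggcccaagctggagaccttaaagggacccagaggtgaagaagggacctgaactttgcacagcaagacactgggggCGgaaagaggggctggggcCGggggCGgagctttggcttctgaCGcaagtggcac
Olfr314, chr11:58785889-58786138, plus strand: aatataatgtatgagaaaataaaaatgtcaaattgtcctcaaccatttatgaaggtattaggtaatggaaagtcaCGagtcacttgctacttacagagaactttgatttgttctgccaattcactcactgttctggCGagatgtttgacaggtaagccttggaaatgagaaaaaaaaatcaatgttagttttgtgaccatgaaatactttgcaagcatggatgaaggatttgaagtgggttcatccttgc

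The window of Usp7 held 55 CG dinucleotides, that of Bex1 4, that of Olfr314 2 and that of Omt2b 1. Over windows of 300 bases (250 before and 50 after the start), genes on in all 9 embryos had a median of 24 CG dinucleotides, with 82.1% of them matched to a window. The median was 27 among steady genes with a mean of 10 or more (84.2% matched). It was 1 among the receptor genes (85.3% matched) and 7 over all 32851 windows of the reference table. The maternal oocyte genes, although mostly bright, had a median of only 4.5 (80% matched). For genes on in some embryos, genes at background and low steady genes the check is void, because fewer than 80% of their members had a window. The same limit holds for all genes measured (78.3% matched), whose median of 15 is given for scale only. It lies between the 7 of all windows and the 24 of genes on in all 9 embryos. The letters TATAAA, on either strand, were present in 6.27% of the windows of genes on in all 9 embryos and 12.5% of those of maternal oocyte genes. They were present in 40.0% of those of receptor genes, 12.1% of those of all genes measured and 13.6% of all windows. A match to these letters is a description of sequence and not a mapped promoter element.

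Before the genes are described, the embryos are. The ceiling was lowest in the 3 embryos numbered 1, at 6.33 (WT_1-1), 6.27 (WT_2-1) and 6.33 (WT_3-1), and between 6.40 and 6.52 in the 6 others. These 3 embryos also had the most genes on, 6050, 6152 and 5949, against 5440 to 5814 in the others. With 1 ceiling for all embryos, an alternative added after these values were seen, the number of genes on ranged from 5649 to 5852 and the 3 embryos no longer stood apart in it. They still had the most of the variable genes on, 143 to 154 against 93 to 129. The deposited labels do not say what an embryo's number stands for. Its part was examined by counts without these embryos. For the comparison of fathers it was also fitted as a replicate block, and embryos that share a number were correlated. Beyond that it was not tested. Embryo WT_3-1 stood somewhat apart as well. It held the lowest value of 17.98% of the genes on in all 9 embryos, against 6.98% to 12.4% in the others, and its mean Pearson correlation with the other 8 embryos over those genes was the lowest, at 0.867 against 0.875 to 0.895. Without WT_3-1 there were 576 steady genes and 295 genes on in some embryos, and without the 3 embryos numbered 1 the numbers were 695 and 141.

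The 25 brightest genes of the wild-type 2-cell embryo had mean signals between 12.51 and 13.19. The highest signal, 13.19 ± 0.03 (SD, n = 9), came from a probe set annotated to Baiap2l1. This gene encodes an actin-binding adaptor of membrane protrusions. The probe set's lowest embryo read 13.14, its median was 13.20 and its highest embryo read 13.23. The other probe sets that name Baiap2l1 read 12.10 and 8.42, which shows how far probe sets that name a single gene can lie apart. Whether each of them reads the Baiap2l1 transcript was not tested. With the mean of a gene's probe sets instead of the highest, 17 of the 25 stayed among the 25 brightest. Next came Rn7sk, the non-coding RNA that holds the elongation factor P-TEFb inactive (12.99 ± 0.03), Mdm4, an inhibitor of p53 (12.96 ± 0.04), and Gtf2a1, a subunit of the general transcription factor TFIIA (12.95 ± 0.04). Mdm4 and Gtf2a1 differed by less than their spread between embryos.

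The cytosolic ribosome contributed 5 of the 25 brightest genes, namely Rpl41 (12.85 ± 0.06), Rps12 (12.67 ± 0.09), Rps20 (12.63 ± 0.08), Rps6 (12.58 ± 0.10) and Rps9 (12.51 ± 0.12). Genes of RNA synthesis and its marks were represented by Wtap, a subunit of the RNA N6-methyladenosine writer (12.86 ± 0.09), Polr2l, a subunit shared by nuclear RNA polymerases (12.52 ± 0.17), and Larp4, an RNA-binding protein (12.55 ± 0.17). Chromatin and chromosome genes included Chd7, a chromatin remodeller (12.63 ± 0.10), and Rad21, a cohesin subunit (12.54 ± 0.06). Sumo2, a small protein modifier (12.54 ± 0.07), and Calm2, which encodes calmodulin (12.82 ± 0.08), were at similar levels. COX2, the mitochondrially encoded subunit of cytochrome c oxidase, read 12.59 ± 0.06, and Timm17a, part of the mitochondrial import machinery, 12.52 ± 0.18. Prps1, the X-linked gene for an enzyme of nucleotide synthesis, was at 12.92 ± 0.14. Klf17 was the only one of the 21 pluripotency factors measured to reach the 25 brightest genes (12.55 ± 0.14). The rest of the 25 were Zfp280b, Foxj3, Gm11517, Gm1965 and Ccdc6, which ranged from 12.52 to 12.71.

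**Figure D1:**
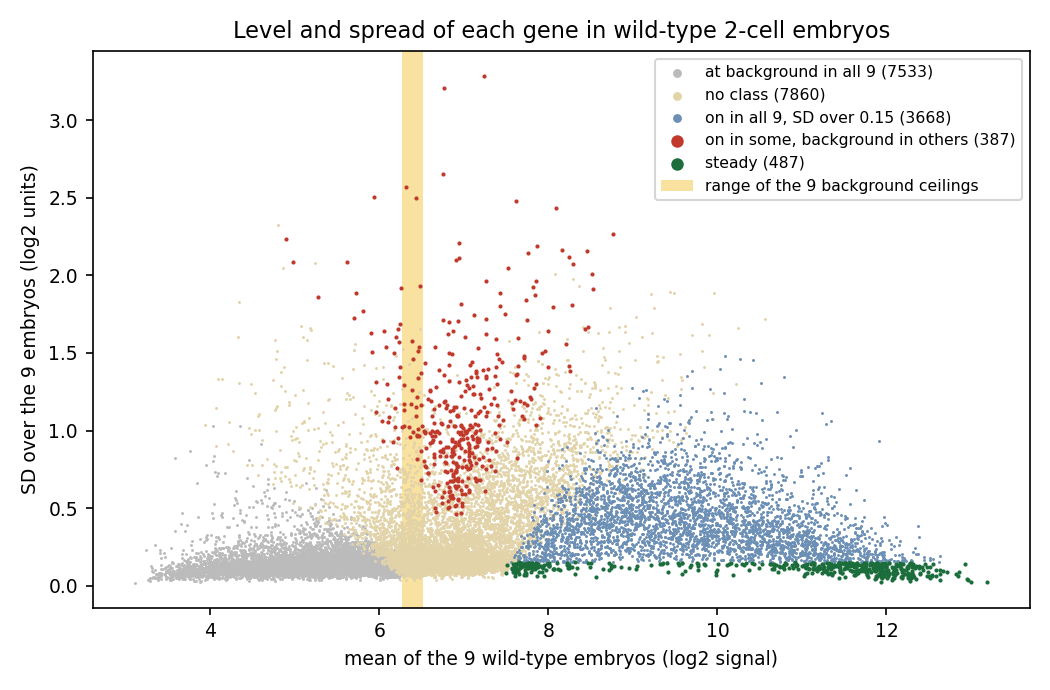
Mean (x axis, log2 signal) and SD (y axis, log2 units) over the 9 wild-type embryos for each of 19935 genes, with the classes in colour and the range of the 9 background ceilings as a yellow band. The spread is small below the ceilings and again above 12, and the genes on in some embryos lie mostly between means of 6 and 8.

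The spread between embryos followed the level. The median SD was 0.12 among the 2796 genes with a mean below 5 and 0.16 between 6 and 7. It reached 0.52 among the 1491 genes between 8 and 9, then fell to 0.35 between 10 and 11, 0.21 between 11 and 12, and 0.12 among the 146 genes above 12. Signals in the middle of the scale therefore varied most between embryos, and those at either end least. Being steady thus went with level: 104 of the 146 genes above 12 were steady, against 42 of the 950 between 10 and 11. How far the upper end of the array's range narrows the spread was not tested.

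The 20 steadiest genes were all bright, with means from 11.44 to 13.19. Usp7, a deubiquitinase that acts on the p53 and Mdm2 proteins, varied least, at 11.94 ± 0.02, with values from 11.90 to 11.98. The translation genes Eif4g2 (12.27 ± 0.03) and Serbp1 (12.06 ± 0.04) followed closely. Dbf4, the regulatory subunit of the kinase that fires replication origins (11.86 ± 0.04), Ccna2, which encodes cyclin A2 (11.87 ± 0.05), and Kpna2, an importin (12.29 ± 0.05), were among the 20 steadiest. So were Dppa3, the maternal factor that shields the maternal genome from demethylation (12.08 ± 0.05, from 12.03 to 12.15), the chromatin reader Spin1 (12.07 ± 0.05) and the RNA helicase Ddx3x (12.27 ± 0.05). Baiap2l1, Rn7sk, Mdm4, Gtf2a1, Foxj3 and Ccdc6 were both among the brightest and among the steadiest. The others were Hypk, Usp34, Hnrnpab, Canx and Fth1, with SDs from 0.04 to 0.05. These SDs hold for the probe set used. The other probe set of Dppa3 read 11.25 ± 0.34 and that of Ddx3x 10.05 ± 0.76, so neither was steady. The other probe sets of Kpna2 (both 12.18 ± 0.05) and Rn7sk (12.67 ± 0.05) were steady. For Baiap2l1 the one at 12.10 ± 0.04 was steady and the one at 8.42 ± 0.55 was not.

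In the 9 embryos that took no part in choosing them, 18 of the 20 steadiest genes again had an SD of 0.15 or less. Of all 487 steady genes 239 (49.1%) did, and their median SD was 0.15 there against 0.12 in the embryos that chose them. The share was 37.9% over all genes, which include the many at background with a small SD, and 4.23% over the 3668 genes that were on in all 9 wild-type embryos without being steady. Among genes with a mean of 10 or more it was 50.6% for steady genes. It was 5.45% for the 1431 that were on in all 9 without being steady. No such share was taken for genes as bright as the 20 steadiest. Over all genes the median SD was 0.18 in both sets of 9 embryos.

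The steady genes formed a bright and a dim group. There were 348 with a mean of 10 or more, 25 between 9 and 10, and 114 below 9, of which 82 lay between 7.5 and 8. The dim group held genes known from differentiated tissues, a choice of examples made after their values were seen. Oxt, the gene of the hormone oxytocin, read 7.95 ± 0.06, with values from 7.89 to 8.08. Krt33b, a hair keratin, read 8.57 ± 0.05, and Sox3, a neural transcription factor, 7.86 ± 0.06. Emx1, a forebrain factor, read 7.61 ± 0.12, Col1a1, a fibroblast collagen, 7.56 ± 0.11, and the olfactory receptor gene Olfr314 7.93 ± 0.09. The keratin-associated genes Krtap17-1 (8.72 ± 0.10) and Krtap10-10 (7.72 ± 0.08), which are used in hair follicles, were in it too.

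When the ceiling was taken from keratin-associated and defensin genes instead of receptors, it lay between 7.92 and 8.63. By construction no steady gene with a mean below 9 could then be on in all 9 embryos. The number of genes on in all 9 embryos fell from 4155 to 1679, and 42 of the 387 variable genes met the rule for them under both ceilings. The call of a gene with a mean below 9 thus depended on which family set the background. Of the 487 steady genes 358 were kept, among them all 348 with a mean of 10 or more. Some calls of genes with means between 9 and 10 therefore depended on it too.

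**Figure D2:**
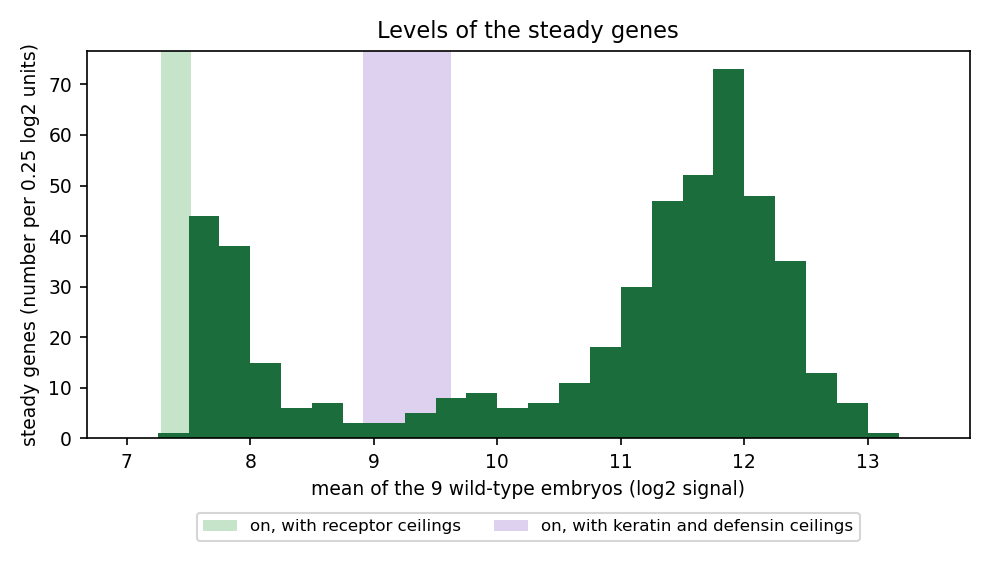
Number of steady genes (y axis, per 0.25 log2 units) by mean level over the 9 wild-type embryos (x axis, log2 signal). The green band spans the levels from which a gene counted as on with receptor ceilings and the purple band with keratin and defensin ceilings; 114 steady genes lie below 9 and 348 at 10 or more.

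Maternal oocyte genes were still bright. Of 60 measured, 45 (75%) were on in all 9 embryos and 0 were at background in all 9, against 20.8% and 37.8% of all genes, and the median level of the list was 10.39. Tcl1b1, of an oocyte-specific family of kinase coactivators, read 12.34 ± 0.24, Omt2b 12.27 ± 0.07 and Oosp1, an oocyte-secreted protein, 12.09 ± 0.16. Oosp2, its neighbour of the same family, ran from 5.02 to 10.81 with a median of 8.79, and was on in 7 embryos and at background in 1. Gtsf1, a partner of the piRNA machinery, varied from 7.71 to 10.51. The mean of the list per embryo was lowest in WT_3-1 (9.65) and highest in WT_2-1 (10.23).

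Genes known for a burst at the 2-cell stage were measured only in part, since 14 of the 41 listed had a probe set that names 1 gene, and 0 of the Zscan4 genes did. Of the 14, 9 (64.3%) were on in all 9 embryos and 1 (7.14%) was at background in all 9, against 20.8% and 37.8% of all genes. Tdpoz2 (11.63 ± 0.34) and Pramel7 (11.59 ± 0.15), members of multigene families of the cleavage stage, were bright in every embryo. Zfp352, a zinc finger gene used as a marker of this stage, ran from 8.18 to 11.73 with a median of 10.64. Pramel6 ran from 7.01 to 11.13 with a median of 10.53, and Obox6, an oocyte-type homeobox gene, from 9.71 to 11.13. The list's mean per embryo was highest in WT_2-1 (9.87) and lowest in WT_1-3 (8.91). Such families have near-identical copies, so the measured signal is uncertain as to which copy it came from.

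Heat shock chaperones, of which the constitutive ones are abundant in most cells, were on in all 9 embryos for 15 of 19 genes (78.9%, against 20.8% of all genes). Hspa8 read 12.34 ± 0.11 and Hsp90aa1 12.17 ± 0.05, while the stress-inducible Hspb1 varied from 6.99 to 9.33 and Dnajb1 from 8.77 to 10.90.

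Pluripotency factors were split. Of 21 measured, 10 (47.6%) were on in all 9 embryos and 1 (4.76%) was at background in all 9, against 20.8% and 37.8% of all genes. The brightest were Klf17, Pou5f1, the gene of OCT4 (12.22 ± 0.16), and Dppa2, a chromatin-bound activator of early genes (12.17 ± 0.11). Klf2 (7.80 ± 0.09) belonged to the dim steady genes. Tdgf1, a coreceptor of the NODAL ligand, was on in 2 embryos and at background in 7, with a highest value of 10.26 and a median of 6.26. Myc ran from 6.59 to 9.10. Of 21 early lineage factors measured, 3 (14.3%) were on in all 9 embryos and 9 (42.9%) were at background in all 9, against 20.8% and 37.8% of all genes. The 3 were Gata4 (9.37 ± 0.39), Tfap2c (9.19 ± 0.26) and Tead4, a factor of the trophectoderm (9.10 ± 0.90).

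Most chromatin modifiers and cell cycle genes were on in every embryo, whereas 20.8% of all genes were on in all 9 and 2.44% were steady. Of 58 chromatin modifiers 44 (75.9%) were on in all 9 embryos and 11 were steady, among them the Polycomb genes Suz12 (12.21 ± 0.07) and Bmi1 (12.02 ± 0.08) and the histone demethylase gene Kdm5b (11.97 ± 0.06). The most variable was Dnmt3l, a cofactor of de novo DNA methylation, which read 10.59 in WT_2-2 and between 6.54 and 8.35 in the 8 others. Of 44 cell cycle genes 31 (70.5%) were on in all 9. Pcna, the sliding clamp of replication, read 12.08 ± 0.09 and Ccne1, cyclin E1, 11.48 ± 0.25. Rb1, the retinoblastoma gene, ran from 8.03 to 11.48 and Cdk4, a kinase of the G1 phase, from 6.94 to 9.72.

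Of 28 imprinted genes 1 (3.57%, against 20.8% of all genes) was on in all 9 embryos, the growth factor receptor gene Igf2r (10.16 ± 0.41). The 12 at background in all 9 (42.9%) were close to the 37.8% of all genes. Mest ran from 6.61 to 10.05 and Mcts2 from 6.41 to 11.04. Parg itself, the gene that was disrupted in the other fathers of the study, was on in all 9 wild-type embryos at 10.54 ± 0.41, with a lowest value of 9.55 in WT_1-2, a median of 10.62 and a highest of 10.89.

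**Figure D3:**
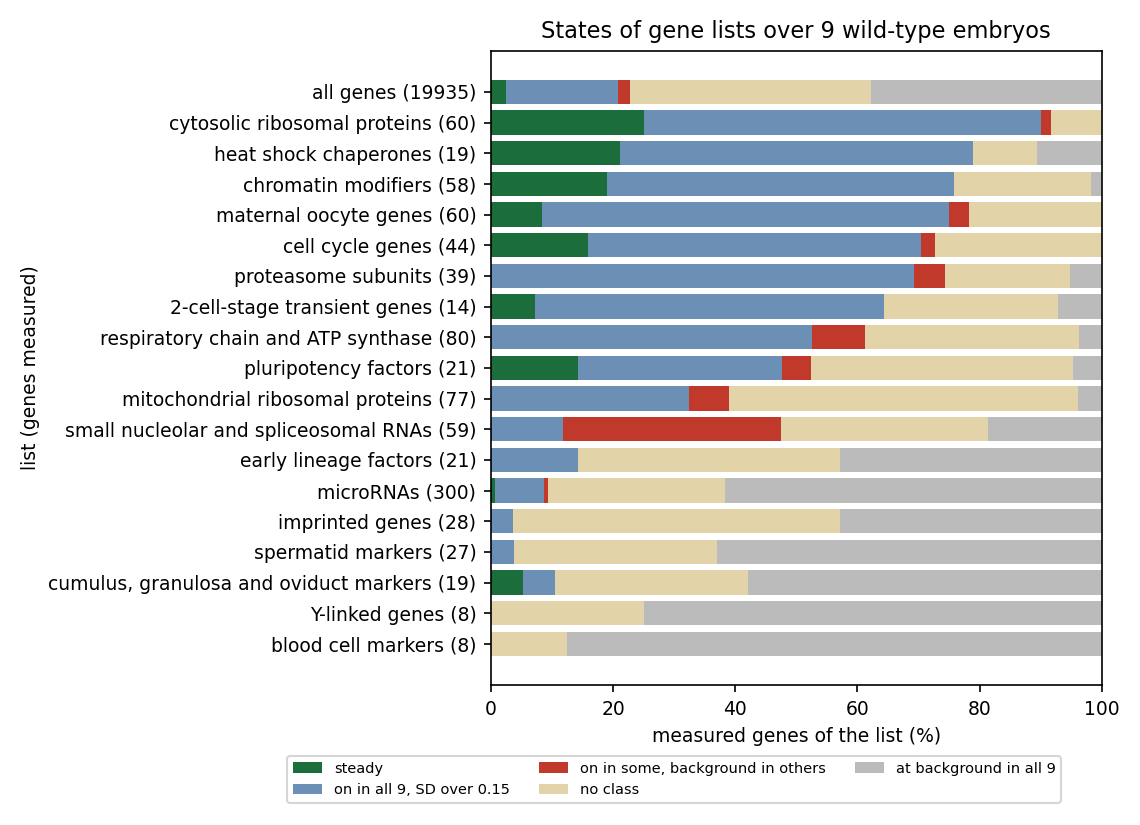
Share of the measured genes of 18 lists and of all genes (x axis, percent) in each state over the 9 wild-type embryos, with the number of genes measured in parentheses. Of the lists drawn, cytosolic ribosomal proteins and chaperones have the longest bars of genes on in all 9 embryos, small nucleolar and spliceosomal RNAs the longest bar of genes on in some, and markers of blood and other tissues are mostly at background.

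Markers of cells that could have come along with an embryo were mostly silent. For comparison, 37.8% of all genes were at background in all 9 embryos and 20.8% were on in all 9. Of 8 blood cell markers 0 were on in any embryo and 7 were at background in all 9. Among 19 markers of cumulus, granulosa and oviduct cells 11 were at background in all 9, and 2 were on in all 9, Epcam (9.03 ± 0.40), an adhesion gene of epithelia, and Col1a1, one of the dim steady genes. Of 27 spermatid markers 17 were at background in all 9. Odf2, which encodes a protein of sperm tails that is also part of centrioles, was bright in every embryo (11.32 ± 0.25). Prm2, the gene of protamine 2, read 8.32 in WT_1-3 and between 6.77 and 7.16 in the 8 others.

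Y-linked genes did not divide the embryos. Of 8 measured, 6 (75%, against 37.8% of all genes) were at background in all 9 embryos. Eif2s3y, a translation factor gene, was at background in 7 and read 7.28 in WT_3-2 and 6.41 in WT_2-1, both short of the level that counts as on. Sry, the testis-determining gene, lay between 7.15 and 7.71 and was called on in 5 embryos, with the others just short of that level. Xist, the RNA that coats the inactive X chromosome, was at background in all 9 (4.94 ± 0.24).

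Housekeeping complexes differed in how evenly their genes were measured. Of 60 cytosolic ribosomal protein genes 54 (90%) were on in all 9 embryos and 15 (25%) were steady, against 20.8% and 2.44% of all genes. Of 39 proteasome genes 27 (69.2%) were on in all 9, of 80 genes of the respiratory chain and ATP synthase 42 (52.5%), and of 77 mitochondrial ribosomal protein genes 25 (32.5%), with no steady gene in any of these 3 lists. Their median SDs were 0.45, 0.57 and 0.55, against 0.23 for cytosolic ribosomal proteins, and their median levels were 9.84, 8.55 and 7.89 against 11.47, so the lists also differed in level.

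Within these complexes, single embryos read low for single subunits that were bright in the rest. Mrpl41, of the large mitochondrial ribosomal subunit, was on in 8 embryos with a median of 11.12, and read 6.04 in WT_2-1, below that embryo's ceiling. Mrps18c, of the small subunit, had a median of 10.44 and read 5.25 in WT_2-2. Psmb6, a catalytic subunit of the proteasome, had a median of 9.66 and read 6.52 in WT_2-2. Psmd10, an assembly chaperone of the proteasome, met the rule for variable genes, with 7 embryos on and 2 at background and a range from 5.52 to 11.29. So did Ndufa1 and Ndufs4, accessory subunits of respiratory complex I, with ranges from 5.98 to 10.52 and from 5.65 to 9.64.

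The 387 genes on in some embryos and at background in others were described in their own right. Of these, 188 were on in 2 embryos, 100 in 3, 40 in 4, 27 in 5, 26 in 6 and 6 in 7. They did not follow a single division of the embryos. The 387 genes showed 169 different patterns of embryos on, the commonest was shared by 17 genes, and 95 patterns were held by 1 gene each.

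Among the widest contrasts, some genes divided the embryos with nothing between and others ran through the middle of the scale. Bex1, a brain-expressed gene of the X chromosome, read 10.32 in WT_1-1, 9.59 in WT_1-2, 10.57 in WT_2-2, 9.23 in WT_3-2 and 10.20 in WT_3-3. In the 4 other embryos Bex1 read 3.72 (WT_1-3), 4.13 (WT_2-1), 3.62 (WT_2-3) and 3.73 (WT_3-1), so the groups of embryos did not overlap. Every father had embryos of both kinds.

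Set, which encodes a histone chaperone and inhibitor of the phosphatase PP2A, read 10.68 in WT_1-3, 10.78 in WT_3-1 and 11.16 in WT_3-3, and from 5.42 to 7.00 in the 6 others. The other probe set naming Set alone stayed at background in all 9 embryos (4.81 ± 0.09). Prkch, the gene of a protein kinase C, ran from 4.03 to 10.82 and was on in 4 embryos, and Phc3, a Polycomb gene, ran from 3.91 to 9.92 and was on in 5. The other probe sets of Prkch and Phc3 also stayed below the level that counts as on. Emb, a chaperone of lactate transporters, was on in 3 embryos and ran from 3.91 to 10.20. Slc44a1, a choline transporter, was on in 6 and ran from 4.38 to 9.82, and Pcnp, a nuclear protein, was on in 6 and ran from 4.62 to 11.06. The other probe sets of both were on in 0 embryos, with a Pearson r of 0.21 (Slc44a1) and 0.15 (Pcnp) over the 9 embryos with the probe set used. For Gm24463 the 4 other probe sets followed the one used with a Pearson r of 0.998 to 0.999 over the 9 embryos. Among these 4, equal means and SDs recurred (8.502 ± 2.051 and 8.497 ± 2.169), so they are not independent readings. Ifitm6, BC031361, Gm5662, Gm15441 and the vault RNA gene Vaultrc5 were also among the 20 widest.

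**Figure D4:**
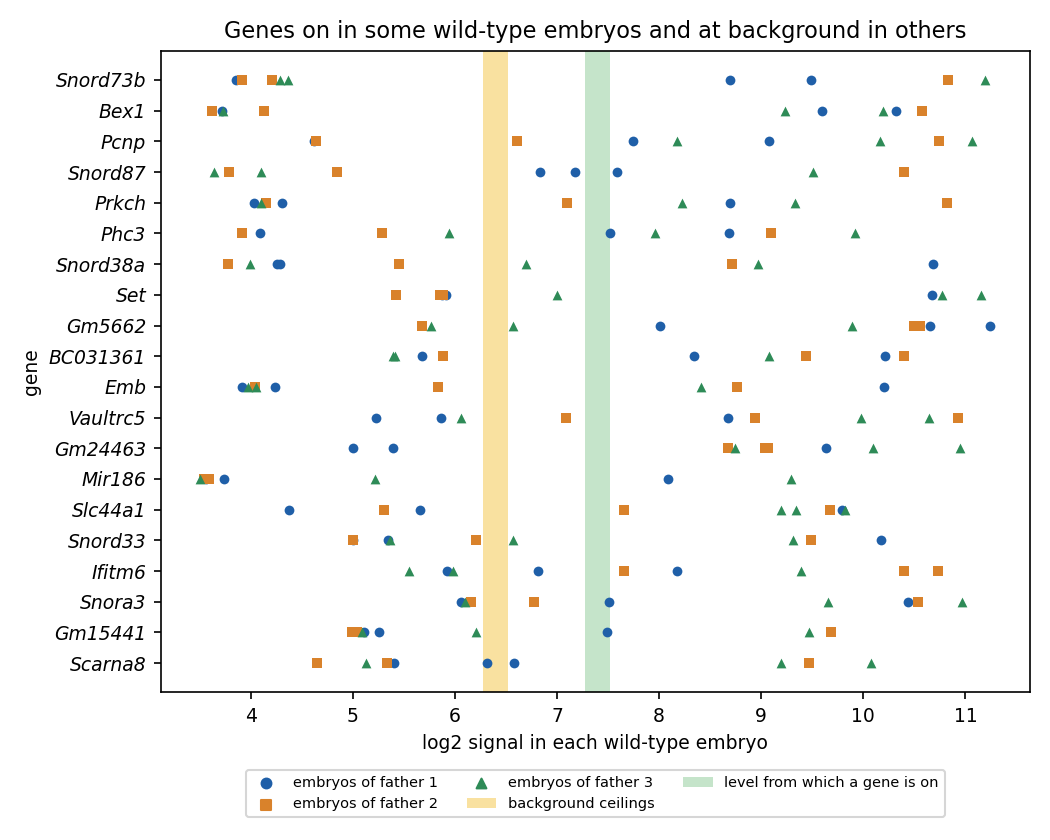
Log2 signal (x axis) in each of the 9 wild-type embryos for the 20 genes with the widest contrast among genes on in some embryos and at background in others, with symbols by father. Yellow and green bands give the range of ceilings and of the levels from which a gene is on; the points of each gene run from below the ceilings to above the level that counts as on.

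Small RNAs that guide the chemical modification of other RNAs made up 6 of the 20 widest, and 1 more was the microRNA gene Mir186. Over the whole list of 59 small nucleolar, small Cajal body and spliceosomal RNAs, 21 (35.6%) were on in some embryos and at background in others, against 1.94% of all genes, and the list's median SD was 1.14. Snord73b read 11.20 in WT_3-1, 10.83 in WT_2-3, 9.49 in WT_1-3 and 8.70 in WT_1-2, and between 3.86 and 4.37 in the 5 others. Snord38a, Snord33, Snord87, Snora3 and Scarna8 were on in 3 to 5 embryos each.

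Most small nucleolar RNAs are cut out of introns of longer genes, and 30 of the 59 lay inside the RefSeq span, on either strand, of another gene measured here. Of these 30, 15 were on in some embryos, and for 14 of the 15 the enclosing gene was on in all 9, as it was for 29 of all 30. Over all 30 the median SD was 1.65 for the small RNAs and 0.16 for the 26 genes that enclose them, which were mostly brighter, at levels where SDs are small. Snord73b lies in the ribosomal protein gene Rps3a1, which read 11.76 ± 0.15 (from 11.41 to 11.90) while Snord73b ranged over more than 7 units. Snord73a, in the same gene, was on in WT_2-1 (9.51) and WT_3-3 (8.49) and at background in the 7 others, so no embryo had both on. Snora31 ran from 4.91 to 9.59 inside Tpt1 (12.39 ± 0.08), a gene of a growth-associated translation protein. Snora33 ran from 5.38 to 10.31 inside Rps12 (12.67 ± 0.09). Snora75 and Snord82 both lie in Ncl, the nucleolin gene (11.89 ± 0.11), and were at background in different embryos, Snora75 in WT_1-3 and WT_3-3 and Snord82 in WT_1-2 and WT_3-2. The exception was Snord87, which lies within Mcmdc2, a gene at background (5.40 ± 0.11). Enclosing genes were found by position alone, and whether a small RNA is cut from its enclosing gene was not tested. How many probes stand behind each probe set was not used here, and its part in these spreads was not tested.

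**Figure D5:**
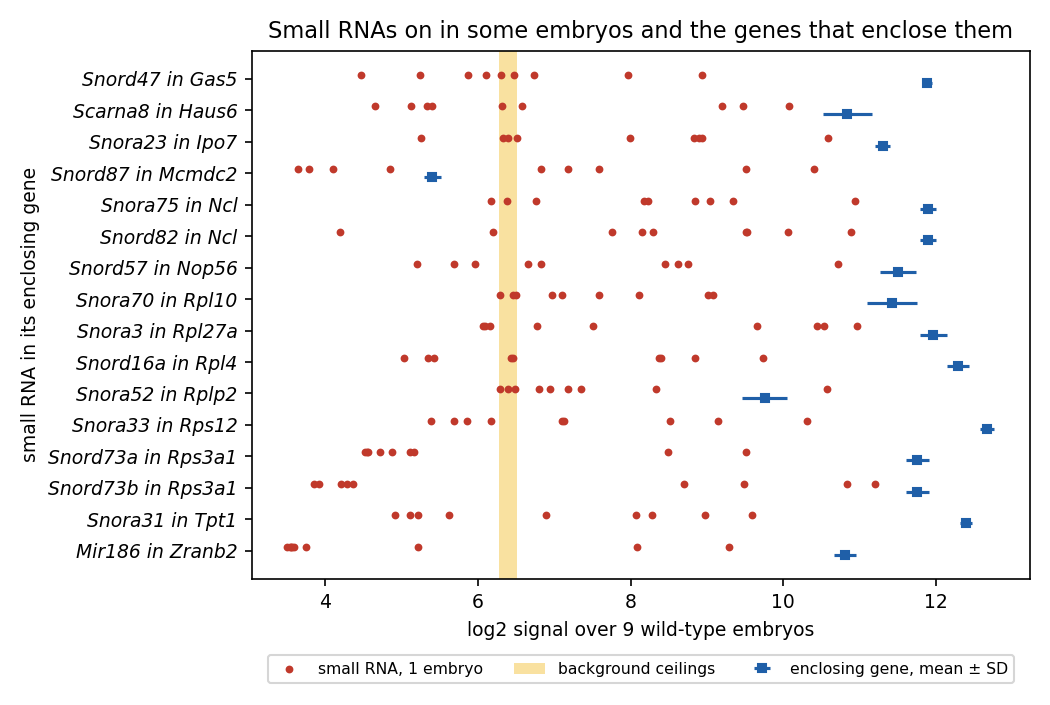
Log2 signal (x axis) of 15 small nucleolar or Cajal body RNAs and Mir186 in each of the 9 wild-type embryos (red points), beside the mean and SD of the gene that encloses each (blue squares). The small RNAs run from below the background ceilings to near 11, while in all rows but that of Mcmdc2 the enclosing gene stays above 9 with short error bars.

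MicroRNA genes were mostly silent on these arrays, whose probes cover the precursor and not only the mature strand. Of 300 measured, 185 (61.7%) were at background in all 9 embryos, 26 (8.67%) were on in all 9 and 2 (0.67%) were on in some embryos. The shares over all genes were 37.8%, 20.8% and 1.94%. Of the 2, the mature strands are shown because these are the sequences by which the genes are known to act, with the seed (bases 2 to 8) in capitals, from RefSeq on GRCm38.p6.
mmu-miR-186-5p: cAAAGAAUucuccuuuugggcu
mmu-miR-186-3p: gCCCUAAGgugaauuuuuuggg
mmu-miR-30e-5p: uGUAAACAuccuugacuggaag
mmu-miR-30e-3p: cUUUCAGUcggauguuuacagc

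Their 4 seeds all differed. Mir186 read 8.09 in WT_1-2 and 9.29 in WT_3-3 and between 3.51 and 5.22 in the 7 others. It lies inside Zranb2, a splicing factor gene that read 10.81 ± 0.14 with every embryo between 10.61 and 11.02. Mir30e read 8.15 in WT_1-2 and 8.92 in WT_3-2 and between 4.11 and 4.58 in the 7 others. The steady microRNA genes were Mir210 (7.88 ± 0.09), within the dim group, and Mir346 (9.34 ± 0.14). The calls of both depended on the ceiling. Mir346 read 9.34 in WT_1-2 and 9.52 in WT_1-3, less than 1 log2 unit above their keratin and defensin ceilings of 8.62 and 8.63.

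Genes of the X chromosome made up 7.75% of the genes on in some embryos (30 of 387), compared with 3.73% of all genes, 2.70% of genes on in all 9 and 5.28% of genes at background. Bex1, Psmd10 and Ndufa1 were among the 30. Of the 387, 88.4% were protein-coding, against 93.2% of all genes.

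In the 9 embryos that took no part in choosing them, 147 (38.0%) of the 387 genes met the same rule, against 1.88% of all genes, and 274 (70.8%) had at least 1 embryo on and 1 at background. Of the 20 with the widest contrast 10 met the rule again. Of the 387, 2 were on in all 9 of those embryos and 13 were at background in all 9.

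The labels group the wild-type embryos by father and also number them within each father, and the question was whether embryos of 1 father were more alike. No probe set differed between the 3 fathers at an adjusted p under 0.1 in limma's moderated F test (0 of 28815, 0%), where the smallest adjusted p was 0.46 and 1178 probe sets (4.09%) had an unadjusted p under 0.05. A plain one-way F test also called 0, with 1174 under 0.05. Without WT_2-3 and without WT_3-2 limma called 8 probe sets each, without WT_2-1 and without WT_3-1 it called 2 each, and without WT_2-2 it called 1. Among named genes the smallest p belonged to Tmem231, a gene of primary cilia, with means of 11.61, 11.24 and 10.76 in the embryos of fathers 1, 2 and 3 and no overlap between them. Maea, a ubiquitin ligase subunit, followed, with 7.53, 9.14 and 7.91, and the embryos of father 2 lay above all others. Both had an adjusted p of 0.969 in limma's test. Deviations of the 7855 genes on in at least 1 embryo correlated at -0.116 on average between embryos of 1 father and at -0.128 between embryos of different fathers, values that are below 0 because the mean of all 9 was subtracted. The difference of 0.012 had an exact one-sided permutation p of 0.318 over all 280 ways to form 3 families of 3, where the smallest p possible is 0.00357. It fell below 0 without WT_2-1 (-0.015), WT_2-2 (-0.0121) or WT_3-1 (-0.00497).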

How the data were processed

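RNA of individual 2-cell embryos was amplified (WT-Ovation One-Direct, NuGen) and hybridised to Affymetrix Mouse Gene 1.0 ST arrays. The deposited values are log2 signals that the authors made in Partek Genomics Suite with RMA (background subtraction, quantile normalization and summary of the logged probes into 1 value per probe set); versions are not given in the sources used here. Quantile normalization gives all arrays one distribution of probe signals before the summary. A shift of most transcripts in an embryo would therefore not be seen, and RMA compresses differences near background. Array medians of the summarised values ran from 6.34 to 6.49 over the 9 wild-type embryos. They were lowest in the 3 embryos numbered 1 (6.34 to 6.38, against 6.43 to 6.49 in the others). The number of arrays limits the precision. The value table held 0 columns without a sample.

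Of 28815 probe sets, the platform annotation names 1 gene for 21780 and several for 1605, and 5430 are not listed. Genes were named from probe sets with 1 gene only, as the annotation gives it, and where their probes map was not checked. Gene spans and promoter windows came from RefSeq (GRCm38.p6), matched by Entrez identifier or symbol; 19916 of 19935 genes had a RefSeq entry. SDs are over 9 embryos. Classes were described without a test. Fathers were compared with limma 3.58.1 in R 4.3.3 (lmFit and eBayes, two-sided F test, Benjamini-Hochberg over all probe sets, called below an adjusted p of 0.1, as in the study's methods) and with an exact permutation test in Python 3.11.15. That the samples of a father are separate embryos is per the labels; p-values measure the spread between embryos, in which the amplification is included. The limma test and the calls of genes on, at background and on in some embryos were tried on simulated data. The permutation test was not.

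Named genes were drawn from the 25 genes of highest mean, the 20 steadiest, the 20 genes on in some embryos with the widest gap between second highest and second lowest embryo, Parg, the Y-linked genes and Xist, the 5 genes of smallest p between fathers, and per list the 3 brightest, the 2 steadiest and the 2 most variable. From the per-list sets and the genes of smallest p not all were named, a choice made with their values known. Genes outside this rule are Oxt, Krt33b, Sox3, Emx1, Tpt1, Ncl, Rps3a1, Zranb2, Mcmdc2 and the small RNAs named with the genes that enclose them, which were chosen after their values were seen. H2az1 and H2az2, taken up by the name pattern of the replication-dependent histones, were removed from that list, of whose 26 genes 8 were on in all 9 embryos. Of 15 common reference genes 12 (80%) were on in all 9, against 30.8% of those histones and 20.8% of all genes. The members and lists were chosen with earlier results of these data known. Alternatives were other scalings, ceilings, limits, probe sets and sets of embryos.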

Additional observations from a re-analysis of the deposited data

Results flagged for a closer look

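Of 147 measures of the 9 wild-type embryos, 15 had a highest or lowest embryo far from the other 8. The measures were 141 genes, those named here and further members of the lists, and 6 measures of whole embryos. A rate of 1 in 20 would give 7.35. Many of these genes were chosen by their spread over these same embryos, and the measures share embryos. That rate is therefore no chance rate for them, and nothing is concluded from it. Embryo WT_3-1 was the far one in 7 of the 15. It read low for Gm1965 (12.27), Spin1 (11.95), Gata4 (8.43) and H2bc1 (7.98), and high for Rps9 (12.78), Eif4g2 (12.36) and Npm1 (12.61). Embryo WT_2-2 read high for Dnmt3l (10.59) and low for Mrps18c (5.25) and Psmb6 (6.52). Embryo WT_2-1 read low for Ccne1 (10.85) and Mrpl41 (6.04). Single far values were a low Parg in WT_1-2 (9.55), a high Prm2 in WT_1-3 (8.32) and a high Olfr239, an olfactory receptor gene, in WT_2-3 (10.66). H2bc1, a testis-type histone H2B gene, had a median of 10.92, and Npm1, the nucleophosmin gene, a median of 12.18.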

How the results depend on the processing

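The counts of genes on in all 9 wild-type embryos, at background, steady, and on in some embryos stayed within 1.5 times their value under equal array medians, a second quantile normalization, the 99th percentile of the receptors as ceiling, the mean of a gene's probe sets, 1 ceiling for all embryos, and without each embryo in turn. With the 99th percentile, however, 560 genes were on in some, of which 187 were among the 387. With the keratin and defensin ceiling 1679 genes were on in all 9 and 13865 at background. With 0.5 log2 units above the ceiling as the limit, 800 genes were steady and 688 on in some embryos. SD limits of 0.10 and 0.20 gave 156 and 854 steady genes. Asking for 1 or 3 embryos in each state gave 1272 and 117 genes on in some, and leaving out the 3 embryos numbered 1, a choice made after seeing the data that leaves 6 embryos, gave 141. Between fathers, limma's F test called 1 probe set with the spread taken from all 18 embryos, and from 0 to 8 when 1 embryo was left out (8 without WT_2-3 and 8 without WT_3-2). The likeness of embryos of 1 father lay between -0.015 (without WT_2-1) and 0.047 (without WT_2-3), turning below 0 also without WT_2-2 and WT_3-1, with exact permutation p from 0.139 to 0.639. The cause of these changes was not tested. Of the 20 steadiest genes 7 were again among the 20 steadiest with equal array medians, 11 after a second quantile normalization, 11 without the 3 embryos numbered 1 and 13 without WT_3-1, so the order among steady genes is not fixed. Of the 20 widest genes 11 stayed without the 3 embryos numbered 1. With the embryo number as a replicate block, added after seeing the data, limma again called 0 probe sets between fathers (smallest adjusted p 0.29, 1400 with an unadjusted p under 0.05); deviations from the father means correlated between -0.0971 and 0.147 in the 9 pairs that share a number, and 4 of 9 embryos were most like an embryo of their own number, so the numbers were not taken as a pairing. The genotypes that share numbers were not compared. Signal near background limits every call of a dim gene.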

Other observations

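Probe sets outside the gene table also carried signal in the wild-type embryos. Of the 1605 probe sets that name several genes, 664 (41.4%) were on in all 9 embryos and 77 (4.80%) were on in at least 2 and at background in at least 2. Of the 5430 probe sets with no listed gene, 825 (15.2%) were on in all 9 and 146 (2.69%) on in some and at background in others.

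Receptor genes, which set the background, were not all silent on the arrays. Of 1228, 3 were on in all 9 embryos and 3 were on in some and at background in others.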
